A study of Homo sapiens with 40 samples.

Results

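MAVER1 is an established human cell line of mantle cell lymphoma. This cancer of B cells usually carries high cyclin D1. MAVER1 supplied 10 of the 40 arrays of a study in which the lines GRANTA519, JEKO1, MAVER1 and REC1 were exposed to the BET inhibitor OTX015 or to DMSO, its solvent. The 10 arrays were taken by the line named in the array labels. They form 5 pairs, 1 OTX015 and 1 DMSO array after 2, 4, 8, 12 and 24 h, and the other 3 lines have 10 arrays each on the same plan. Each line is a single culture model without stroma or immune cells, and neither the dose of OTX015 nor whether the times came from separate cultures is given in the sources used here. The question followed below is what OTX015 did in MAVER1, and where MAVER1 differed from the other 3 lines.

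BET proteins bind acetylated histones through their bromodomains and help RNA polymerase II leave the promoter of active genes. OTX015 occupies the acetyl-lysine pocket of these bromodomains and so displaces BET proteins from chromatin. B cell lymphomas are known to depend on BET proteins for lineage genes that carry large clusters of enhancers, and BET inhibitors are known to raise histone gene transcripts in many cell types.

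Levels are log2 signals of single-colour Illumina bead arrays, and a change is the OTX015 level minus the DMSO level at the same time, given as the mean ± SD of the 5 times. With 1 array for each treatment and time, limma's p-values reflect how much the change varied between times, not between cultures. They were adjusted by Benjamini-Hochberg over 13740 genes, and a gene is said to have risen or fallen where the adjusted p was under 0.05. Between 37.9% and 45.5% of the probes were detected above background on a MAVER1 array, the lowest share on the 2 h DMSO array and the highest on the 2 h OTX015 array. All 40 arrays correlated best with another array of their own line.

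The labelled cell type was checked against 10 measured markers of mantle cell lymphoma and B cells. CCND1, the gene of cyclin D1, had log2 levels of 13.12, 13.28, 13.31, 13.47 and 13.36 on the DMSO arrays from 2 to 24 h and a mean of 13.22 on the OTX015 arrays. The groups overlapped, and its change, which ranged from -0.31 to 0.09 over the times, was -0.08 ± 0.17 (SD, n = 5 times, adjusted p = 0.615). SOX11, the transcription factor used to diagnose the disease, was detected on all 10 MAVER1 arrays and rose by 0.60 ± 0.26 (adjusted p = 4.41e-04). Of the other markers, CD79A, MS4A1 (CD20), EBF1, BLNK, FCRLA and CD5 fell, while CD22 and CD79B had changes of -0.47 and -0.27 that did not pass. The EBF1 fall was lost in 7 of 16 alternative runs (adjusted p up to 0.215). CD5 was detected on all 5 DMSO arrays of MAVER1 and on no array of the other lines. Markers of other cell types were mostly dim: 5 of 15 T and NK cell markers, 6 of 15 myeloid markers and 9 of 15 stromal and epithelial markers entered the test, of which 0, 1 and 3 were detected on all 10 MAVER1 arrays. Among these, PECAM1 fell by 1.39, EPCAM by 1.13, PRF1 by 0.50 and COL1A1 by 0.38, and their part in the other results was not tested. The COL1A1 fall was lost in 10 of 15 alternative runs (adjusted p up to 0.164).

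OTX015 changed about as many genes in MAVER1 upwards as downwards. In MAVER1, 1545 genes rose (11.2% of those tested) and 1476 fell (10.7%), of which 149 (1.08%) rose and 206 (1.5%) fell by at least 2-fold. The DMSO and OTX015 arrays did not overlap for 784 genes (5.71%) that were higher with OTX015 and 782 (5.69%) that were lower. Most of these calls were shared with another line. Of the genes that rose in MAVER1, 63.5% also rose in GRANTA519, 53.1% in JEKO1 and 48.2% in REC1, which makes 60%, 55.5% and 69.3% of the genes that rose in those lines. Of the genes that fell, 63.7%, 58.8% and 40.7% fell in GRANTA519, JEKO1 and REC1, or 55.1%, 46.7% and 57.2% of those lines' own falls. All 3 other lines shared 480 of the rises and 418 of the falls, and 331 rises and 290 falls passed in no other line. Passing in 1 line only is no test of a difference, which is given further on. A set of 13 genes passed in MAVER1 in 1 direction and in another line in the other direction, among them CCDC112, which fell by 1.23 in MAVER1 and had a change of 0.52 in GRANTA519, while it changed by -0.97 in JEKO1, in the direction of MAVER1. No gene passed in MAVER1 against the direction of 2 or more other lines.

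Core histone genes held most of the largest rises. Replication-dependent histones are made in S phase to package new DNA, and their genes lie in clusters of near-identical copies. Of 42 measured histone genes, 26 rose (61.9%, against 11.2% of all genes) and 0 fell, with a median change of 0.86 beside 0.01 over all genes. The same list counted 25 rises in GRANTA519, 36 in JEKO1 and 24 in REC1, where 11.9%, 10.7% and 7.82% of all genes rose. H2BC21 encodes a core histone H2B. Its levels in MAVER1 were 5.44, 5.59, 5.74, 5.70 and 5.44 with DMSO and 8.51, 8.89, 8.17, 8.29 and 8.70 with OTX015. All OTX015 arrays lay above all DMSO arrays, and the change of 2.93 ± 0.40, or 7.6-fold, was the largest rise in the line among genes with the same sign at all 5 times (adjusted p = 1.45e-09). It was already 3.07 at 2 h. H2BC5, another H2B gene, rose by 2.77 ± 0.52 and H2AC6, an H2A gene, by 2.65 ± 0.40. H4C15, H4C14, H2BC11, H2AC18 and H2BC12 rose by 2.10 to 2.51. H4C14 and H4C15 are near-identical copies, as are several H2A and H2B genes, so a probe may read more than 1 of them. The labelling kit named in the labels primes on poly(A), which most replication-dependent histone mRNAs lack, and which transcript form the probes read was not tested.

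The promoters of 4 of these H2B genes are shown because the genes rose together and because H2B promoters are known for a shared octamer element bound by OCT1 and its coactivator. Each line gives the 120 bases before the RefSeq start of the gene on GRCh38.p14, 5′ to 3′ on the gene's strand, and capitals mark the octamer ATTTGCAT where a search found it. H2BC21 lies on the minus strand at chr1:149886683-149886802, H2BC5 on the plus strand at chr6:26158001-26158120, H2BC11 on the minus strand at chr6:27132796-27132915 and H2BC12 on the minus strand at chr6:27146859-27146978.
H2BC21: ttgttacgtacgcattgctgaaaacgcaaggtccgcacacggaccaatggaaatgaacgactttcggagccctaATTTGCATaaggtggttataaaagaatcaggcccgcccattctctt
H2BC5: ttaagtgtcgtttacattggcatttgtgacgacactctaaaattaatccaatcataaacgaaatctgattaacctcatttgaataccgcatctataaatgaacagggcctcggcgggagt
H2BC11: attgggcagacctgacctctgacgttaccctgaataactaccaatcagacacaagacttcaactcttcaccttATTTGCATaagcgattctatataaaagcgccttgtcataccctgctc
H2BC12: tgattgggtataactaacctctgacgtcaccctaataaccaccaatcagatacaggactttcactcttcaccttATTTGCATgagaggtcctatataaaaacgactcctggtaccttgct
On either strand, the octamer was in the 120 bases before the start of 12 of 18 H2B genes (66.7%) and of 234 of 27305 promoters in all (0.857%). The CCAAT box was in 94.4% of the H2B windows and 21.2% of all, and TATAAA in 44.4% and 6.01%. The H2BC5 window holds no exact octamer, although its rise was the next largest after that of H2BC21.

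Genes outside the histone clusters rose as well. TUFT1, which encodes tuftelin, rose by 2.32 ± 0.36, and PPP1R13B, whose protein ASPP1 assists p53 at its apoptosis targets, rose by 2.34 ± 0.47. PPP1R13B had levels of 4.67, 4.88, 4.99, 5.13 and 4.57 with DMSO, where it was detected on 2 of 5 arrays, and of 6.83, 8.01, 7.13, 7.06 and 6.91 with OTX015. The groups did not overlap, and it rose in each of the other lines by 1.47 to 2.56. EFR3B, a membrane anchor of a phosphatidylinositol kinase, was not well above background on any DMSO array of MAVER1. It was detected on 4 of 5 OTX015 arrays, at least 2.91-fold higher, with a change of 0.19 at 2 h and of 2.35 to 2.67 later (adjusted p = 0.00204), and its 3 probes ranged from 0.17 to 2.07. SERTAD1 and ELL2, from a list of BET proteins, the elongation kinase P-TEFb and its partners, rose by 1.62 and 1.15, and BRD2 itself by 0.72 ± 0.08. That list counted 6 rises and 2 falls among 19 genes (31.6% and 10.5%, against 11.2% and 10.7% of all genes). It counted 7 rises in GRANTA519, 7 in JEKO1 and 6 in REC1, where 11.9%, 10.7% and 7.82% of all genes rose.

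The 12 largest falls included surface receptors of B cells beside transport and metabolic genes. TNFRSF17 encodes BCMA, the receptor for BAFF and APRIL on late B cells and plasma cells. Its levels in MAVER1 were 9.56, 9.62, 9.16, 9.24 and 9.26 with DMSO and 8.16, 5.30, 4.74, 4.68 and 4.76 with OTX015. No OTX015 array reached a DMSO array, and the gene fell by 3.84 ± 1.37, or 14.3-fold (adjusted p = 9.32e-07). The change was -1.40 at 2 h and -4.57 to -4.32 at the later times. The other lines had changes of -3.49, -3.07 and -2.20 in GRANTA519, JEKO1 and REC1, all of which passed, and the difference from their mean did not pass (adjusted p = 0.181). It was detected on 2 of 5 OTX015 arrays of MAVER1 and on 0 of JEKO1, where it was at least 5.6-fold lower.

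FCRL2, a receptor-like inhibitor of B cell receptor signalling, had DMSO levels of 9.25, 9.53, 9.99, 9.82 and 9.59 and OTX015 levels of 8.15, 7.64, 6.96, 6.55 and 6.22. They lay apart at every time, and the gene was 5.78-fold lower on average. It fell further than the mean of the other 3 lines (adjusted p = 0.025), but not than each of them, where the changes were -0.68, -1.66 and -2.24. TLR10 fell by 2.26 ± 0.37 on its brightest probe, while its 3 probes ranged from -2.26 to -0.65. CD72, an inhibitory coreceptor, fell by 2.24, SLC2A5, a fructose transporter, by 2.26, and LAT2, an adaptor of antigen receptor signalling, by 2.09. KMO, an enzyme of tryptophan breakdown, FCMR, the IgM Fc receptor, SH3TC1, ESPNL, NAPSB and CLECL1 fell by 2.03 to 2.39.

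**Figure D1:**
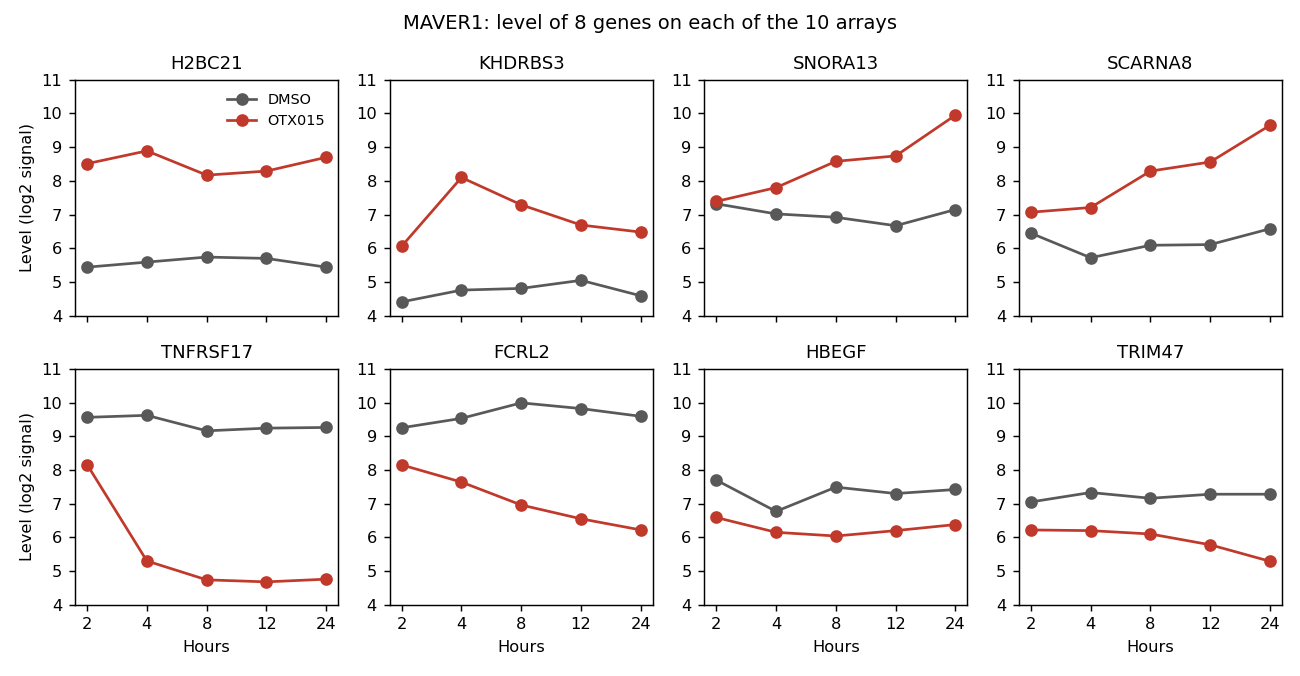
Log2 signal (vertical axis) of 8 genes on each of the 10 MAVER1 arrays against hours of exposure (horizontal axis, spaced evenly), with DMSO in grey and OTX015 in red, 1 array per point. H2BC21 is 3.07 higher with OTX015 at 2 h, TNFRSF17 drops between 2 and 4 h, and SNORA13 and SCARNA8 are furthest from DMSO at 24 h.

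Gene lists of B cell functions held more falls than rises in MAVER1. B cell receptor signalling had 32 measured genes, of which 12 fell and 1 rose (37.5% and 3.12%, against 10.7% and 11.2% of all genes), with PTPN6, DOK3 and BLK, all enzymes or adaptors of that pathway, falling by 1.83, 1.57 and 1.48. PTPN6 had 2 probes that disagreed, with changes of -1.83 and 0.00. Among 25 transcription factors of the B lineage there were 5 falls and 2 rises: SPI1 (PU.1) fell by 1.73, PRDM1 by 0.95 and IKZF1 by 0.87. Of 20 plasma cell markers, 7 fell and 1 rose, with TNFRSF13B (TACI) falling by 1.57 and CD27 by 1.11. The list of toll-like receptors and their adaptor MYD88 had 12 falls and 3 rises among 25, TLR7 and TLR9 falling by 1.63 and 1.46. In the chemokine, migration and adhesion list, 9 of 25 fell and 0 rose, among them CXCR5, the follicle homing receptor, by 1.40, although its 3 probes ranged from -1.40 to -0.22. Falls outnumbered rises in the other lines too. In GRANTA519, JEKO1 and REC1, 17, 19 and 8 B cell receptor genes and 11, 9 and 7 transcription factors fell. The falls were 9, 9 and 6 for plasma cell markers, 11, 13 and 11 for toll-like receptors and 10, 12 and 5 for the chemokine list. Of all genes, 12.4%, 13.5% and 7.63% fell in those lines.

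The MHC class II list had fewer falls in MAVER1 than in GRANTA519 and JEKO1, a difference not tested for the list as such. Of 17 genes of MHC class II presentation, 4 fell in MAVER1, while 12 fell in GRANTA519, 10 in JEKO1 and 3 in REC1, where 12.4%, 13.5% and 7.63% of all genes fell. The median change was -0.34 in MAVER1, -0.75 in GRANTA519, -0.81 in JEKO1 and -0.01 in REC1. In the tests against the mean of the other lines, 0 members were above and 1 was below, RFXANK, a subunit of the complex that switches on class II genes. RFXANK fell by 0.44 ± 0.30 in MAVER1 and had changes of -0.05, 0.03 and -0.01 in GRANTA519, JEKO1 and REC1 (adjusted p of the difference 0.0258), and its 3 probes ranged from -0.44 to -0.08. The difference was lost in 7 of 17 alternatives (adjusted p up to 0.172).

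Small nucleolar and Cajal body RNAs were examined as 3 families, of which the SNORA and SCARNA genes held members above the other lines. H/ACA box RNAs, with symbols starting SNORA, guide pseudouridylation of ribosomal RNA. C/D box RNAs, starting SNORD, guide its methylation, and Cajal body RNAs, starting SCARNA, do the same for spliceosomal RNAs. Nearly all are cut out of introns of host genes. These 3 families were taken by symbol after values had been seen, so their counts are a description. In MAVER1, 37 of 80 SNORA genes (46.2%) and 15 of 20 SCARNA genes (75%) rose, against 11.2% of all genes, and 0 and 1 fell. Of 89 SNORD genes 13 rose (14.6%), a share near that of all genes, and 0 fell. The SNORA rises numbered 6 in GRANTA519, 20 in JEKO1 and 2 in REC1, and the SCARNA rises 3, 11 and 6. The SNORD rises were 11, 25 and 6, with a higher count in JEKO1 than in MAVER1. Of all genes, 11.9%, 10.7% and 7.82% rose in GRANTA519, JEKO1 and REC1.

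In MAVER1 the median change of the SNORA genes was 0.06, 0.24, 0.42, 0.54 and 0.69 at 2, 4, 8, 12 and 24 h. That of the SCARNA genes was 0.42, 0.43, 0.70, 0.85 and 1.17, and that of the SNORD genes stayed between 0.06 and 0.21. In JEKO1 the SNORA median was highest at 4 and 8 h, at 0.34, and was 0.28 at 24 h, while in GRANTA519 and REC1 it was 0.08 and 0.04 at 24 h. The SCARNA median in JEKO1 was 0.21, 0.56, 0.86, 0.42 and 0.84 from 2 to 24 h, above that of MAVER1 at 4 and 8 h. In GRANTA519 and REC1 the SCARNA median was 0.09 and 0.27 at 24 h. Over all genes the MAVER1 median was 0.03 at 2 h and 0.02 at 24 h.

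**Figure D2:**
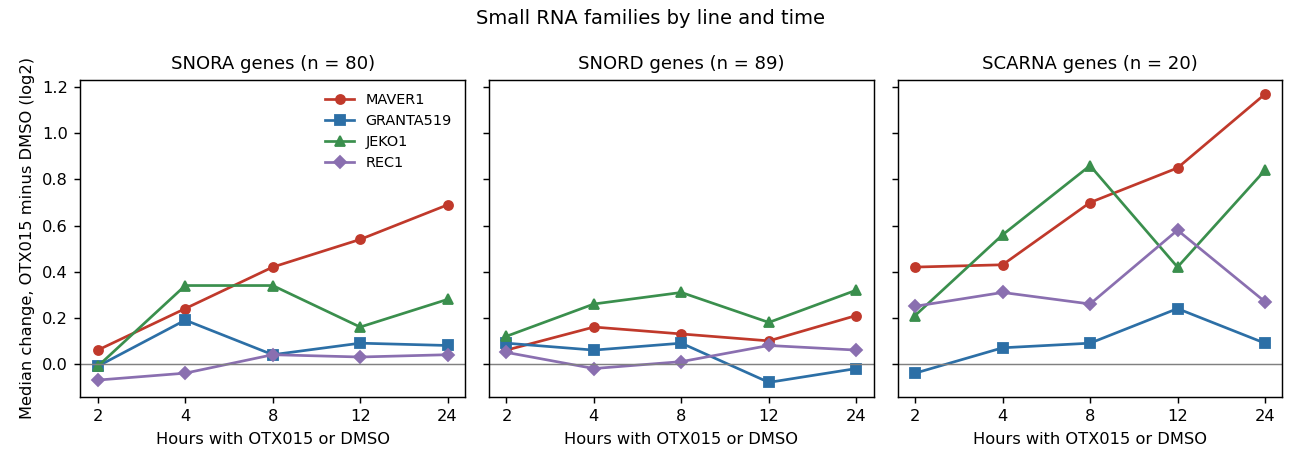
Median change in log2 signal, OTX015 minus DMSO (vertical axis), of the measured SNORA, SNORD and SCARNA genes at each time (horizontal axis, hours, spaced evenly) in the 4 lines, 1 point per pair of arrays. The MAVER1 SNORA median climbs from 0.06 at 2 h to 0.69 at 24 h, and its SNORD median stays at or below 0.21.

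SNORA28 had levels of 7.07, 6.48, 6.80, 6.64 and 7.22 with DMSO and 7.08, 7.94, 8.64, 9.16 and 10.20 with OTX015. The change was 0.01 at 2 h and 2.98 at 24 h, with a mean change of 1.76 ± 1.14 (adjusted p = 6.85e-05). The changes in GRANTA519, JEKO1 and REC1 were 0.23, 0.69 and 0.09, none of which passed, and MAVER1 lay above each line (largest adjusted p of the 3 comparisons 0.0248). SNORA13 had levels of 7.32, 7.02, 6.92, 6.67 and 7.15 with DMSO and 7.39, 7.80, 8.58, 8.74 and 9.95 with OTX015, which did not overlap. It rose by 1.48 ± 1.07, and no other line passed.

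SNORA23 rose by 1.90 ± 1.05, from a mean of 6.36 to 8.26, against changes of 0.20 to 0.39 in the other lines. SNORA27 and SNORA50C rose by 0.90 ± 0.56 and 0.54 ± 0.39. SCARNA8 had DMSO levels of 6.45, 5.72, 6.09, 6.11 and 6.58 and OTX015 levels of 7.07, 7.21, 8.29, 8.56 and 9.65. Its groups did not overlap, and it rose by 1.97 ± 0.94, but it also rose in JEKO1 and REC1, by 1.06 and 1.11. SCARNA16 rose by 1.10 ± 0.46, with changes of 0.06, 0.38 and 0.10 elsewhere. These 7 were the members that lay above each of the other lines, and 16 SNORA, 6 SCARNA and 0 SNORD genes lay above the mean of the 3, where 0.975% of all genes did.

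The genes that hold the small RNAs were looked up next. Of the 37 risen SNORA genes, 27 lay within the interval of 1 measured gene, and that gene rose in 3 cases, fell in 2 and did not pass in 22. The 3 cases are 2 genes, SNHG12, which holds a pair of them, and KANSL2, and the share is near the 11.2% of all genes that rose. The median change was 0.09 for these hosts and 0.90 for the small RNAs. For SCARNA, 9 risen members had 1 measured host, of which 0 rose, 2 fell and 7 did not pass. TIPIN, a replication fork protein that holds SCARNA14, fell by 0.51 while SCARNA14 rose by 1.61 ± 0.43. The host was assigned by position without strand. Because the labelling primes on poly(A), which mature small nucleolar RNAs lack as a rule, whether mature or unprocessed RNA was measured was not tested. The count of 22 SNORA and SCARNA genes above the mean of the other lines was 12 without GRANTA519, 13 without REC1 and 23 without JEKO1, and 7 without the 8 h, 12 h or 24 h pairs.

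The direct test of MAVER1 against the mean of the other 3 lines passed for 134 genes above (0.975%) and 75 below (0.546%). The stricter test, against each of the 3 lines, passed for 19 genes above (0.138%) and 14 below (0.102%), which are called set apart here. Of these 33, 13 above and 3 below were among the 9648 genes detected in all 4 lines, that is on at least 3 arrays of either treatment in every line. Some of them were still near background in part, such as KHDRBS3 with DMSO in MAVER1. The rest of the 33 did not reach this detection in MAVER1 or in another line.

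HBEGF, which encodes a growth factor that binds the EGF receptor, was the largest fall among the set-apart genes detected in all lines. Its MAVER1 levels were 7.70, 6.77, 7.49, 7.30 and 7.42 with DMSO and 6.59, 6.15, 6.04, 6.20 and 6.38 with OTX015. The groups did not overlap, and it fell by 1.07 ± 0.30, or 2.09-fold (adjusted p = 3.37e-06). In GRANTA519, where the mean level was 7.73 with DMSO, the change was -0.07 ± 0.33, and in JEKO1 and REC1, with means of 5.70 and 5.06, it was 0.07 and 0.00. A fall of the MAVER1 size from the JEKO1 or REC1 level would have ended near background, so GRANTA519 was the line with room for it. The largest adjusted p against a single line was 0.00115.

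CCDC85C, a coiled-coil protein gene, changed by 0.14, -0.61, -1.51, -1.07 and -1.37 from 2 to 24 h, a mean of -0.88 ± 0.67, while the other lines had changes of -0.08 to 0.31. ASF1A, a chaperone that hands H3 and H4 histones to chromatin, had a change of -0.25 ± 0.08 in MAVER1 that did not pass, and rose by 0.45, 0.50 and 0.38 in GRANTA519, JEKO1 and REC1. MAVER1 was the lowest of the 4 lines at all 5 times, as for 0.495% of all genes, while it was the highest for 0.808% (largest adjusted p of the differences 0.0174).

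KHDRBS3 encodes an RNA-binding protein that regulates splicing. In MAVER1 it was detected on 1 of 5 DMSO arrays, with levels of 4.41, 4.76, 4.81, 5.05 and 4.59, and on all OTX015 arrays, with levels of 6.06, 8.10, 7.29, 6.69 and 6.48. No array of 1 arm overlapped the other, and it rose by 2.20 ± 0.72, or 4.59-fold. It was well above background before treatment in the other lines, with DMSO means of 8.89, 5.84 and 8.46, and rose there by 0.59, 1.19 and 0.62 (largest adjusted p of the differences 0.0112). Its other probe gave a change of 0.62 in MAVER1.

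H2BC12 was the histone gene set apart from all 3 lines. It went from a mean of 9.62 to 11.71 in MAVER1, a rise of 2.10 ± 0.30, and rose by 1.41, 0.86 and 0.83 in GRANTA519, JEKO1 and REC1, where it started at 10.26, 12.22 and 11.60. Among the other histone genes, H2AC8 and H4C15 lay above the mean of the other lines, by 0.71 and 0.66, and H4C2, detected on 2 of 10 MAVER1 arrays, lay below it by 0.42. These differences were lost in 6 of 16, 9 of 17 and 11 of 16 alternatives, in that order.

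Smaller differences above the other lines were found for TESK2, a kinase of the actin regulator cofilin, EEIG2, ABCC5, an exporter of cyclic nucleotides, FAM171A1 and ZNF296. TESK2 rose by 1.60 ± 0.37 in MAVER1 and by 0.72 to 1.01 elsewhere. EEIG2 and ABCC5 rose by 0.75 ± 0.25 and 0.62 ± 0.17 in MAVER1, and neither passed in another line. FAM171A1 had a change of -0.19 ± 0.10 from a DMSO mean of 5.30 in MAVER1, against falls of 1.14, 0.94 and 1.24 from means of 8.16, 6.76 and 8.20 in the other lines. A fall of that size from the MAVER1 level would have ended near background. ZNF296 had a change of 0.15 in MAVER1 that did not pass, and passed in GRANTA519, where it fell by 0.49.

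Of these genes, HBEGF stayed set apart in every alternative run. KHDRBS3 did so without any 1 time, but not without background correction (largest adjusted p 0.102), with the authors' processed values (0.0759), with the mean of its probes (0.128) or with no time term (0.0664). H2BC12 was lost without the 4 h, 8 h or 12 h pairs, at 0.0865 to 0.123, with the mean of its probes (0.188) and with no time term (0.0995). ASF1A was lost without the 8 h, 12 h or 24 h pairs, at 0.0963 to 0.121, and CCDC85C without any 1 of the 4 later times, at 0.0954 to 0.191. EEIG2, FAM171A1 and ABCC5 were likewise lost without any 1 of the 4 later times, and TESK2 without any 1 of the 5. TESK2 was also lost without background correction (0.516) and with the authors' processed values (0.403), in 12 of 14 alternatives in all, and ABCC5 likewise (0.113 and 0.104), in 10 of 14. SNORA28, SNORA13, SNORA50C and SCARNA8 were lost without any 1 of the 4 later times, at 0.059 to 0.268, and SNORA23, SNORA27 and SCARNA16 without 2 or 3 of the 5. All of these small RNAs but SNORA23 were also lost with no time term. SCARNA8 was lost without background correction, with the authors' processed values and with no detection filter too, in 8 of 14 alternatives in all (up to 0.538). SNORA13 and SNORA50C were also lost with median scaling and with no detection filter, in 7 and 8 of 14.

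**Figure D3:**
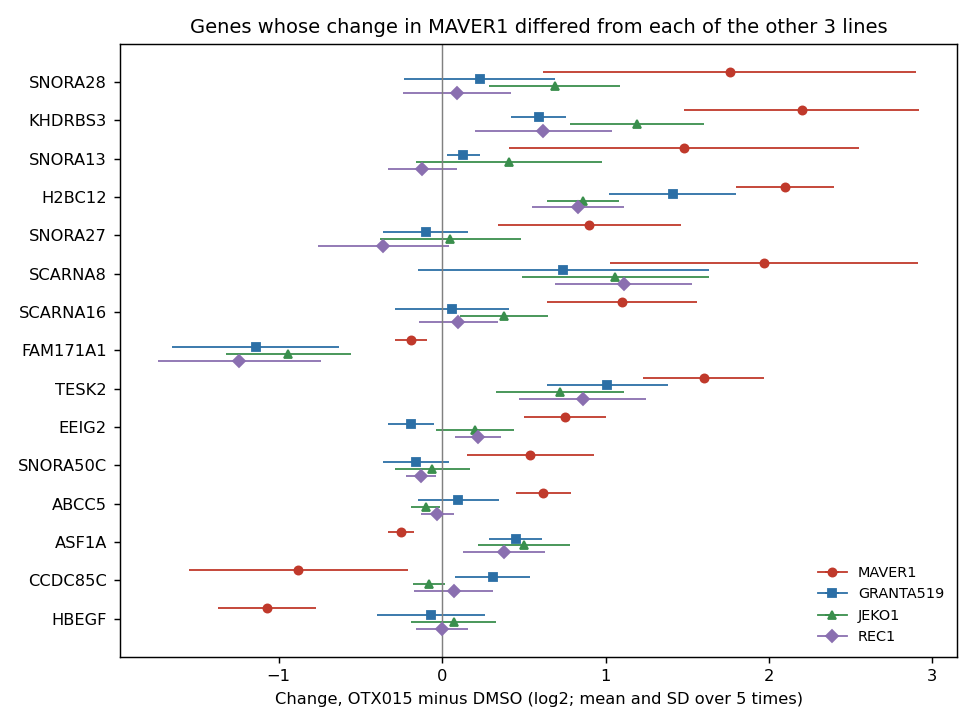
Mean change in log2 signal, OTX015 minus DMSO (horizontal axis), with the SD over 5 times as bars, in the 4 lines for 15 genes (vertical axis) set apart in MAVER1 and detected in every line. HBEGF lies at -1.07 in MAVER1 and between -0.07 and 0.07 elsewhere, and KHDRBS3 at 2.20 against 0.59 to 1.19.

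Another group consisted of genes that MAVER1 expressed and the other lines did not or hardly did. A fall of such a gene could not be measured in those lines. A total of 34 genes were detected on at least 3 arrays of a MAVER1 arm and on no array of the other lines. Of these 34, 17 passed in MAVER1, and 9 of the 17 had 1 sign at all 5 times. Over all genes, 11.2% rose and 10.7% fell in MAVER1. The 34 were taken by their detection in MAVER1, so their count of calls is a description. TRIM47, a ubiquitin ligase gene, had DMSO levels of 7.05, 7.33, 7.16, 7.28 and 7.28 and OTX015 levels of 6.22, 6.20, 6.10, 5.78 and 5.29. The groups did not overlap, and it fell by 1.30 ± 0.45 (adjusted p = 1.93e-07). MNDA, a nuclear protein of myeloid cells and some B cells, had DMSO levels of 7.21, 6.80, 6.99, 7.04 and 7.37 and OTX015 levels of 6.68, 5.93, 6.43, 6.08 and 6.29, and fell by 0.80 ± 0.25.

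PSMB11, a proteasome subunit known from the thymus, fell by 0.87, FAM3B by 0.46 and GAA, the lysosomal acid glucosidase, by 0.31. GGTLC2 was detected on 4 DMSO arrays and not well above background on any OTX015 array, at least 1.27-fold lower. ZCCHC14, a zinc finger gene, was the member that rose, by 0.92 ± 0.47. ACKR4, a decoy receptor for the chemokines that guide B cells to lymphoid tissue, was detected on all 5 DMSO arrays of MAVER1, no OTX015 array and 2 arrays of the other lines, and was at least 2.05-fold lower with OTX015. SAMD13 fell by 1.13 ± 0.30, and TRIP6, a LIM domain protein gene, by 1.75 ± 0.91.

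FOXD1, GPRC5C and TRAF3 were at or near background in MAVER1 and changed in the other lines. FOXD1, a forkhead factor, was not well above background on any MAVER1 array and rose by 0.92 to 1.11 in the other lines, of which GRANTA519 also had it below background with DMSO. GPRC5C was detected on 1 of 10 MAVER1 arrays and fell by 1.31 to 1.65 elsewhere. TRAF3, the adaptor that keeps alternative NF-kB signalling low, was not well above background on any MAVER1 array, while it was detected on all 30 arrays of the other lines, with DMSO means of 6.38, 6.88 and 6.20 and changes of -0.42, -0.56 and -0.62.

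Of 11 genes of the alternative NF-kB list, 1 rose and 0 fell in MAVER1 (9.09% rose, against 11.2% of all genes). GRANTA519 had 0 rises and 3 falls, JEKO1 2 and 2, and REC1 0 and 1. The gene that rose was MAP3K14, the NIK kinase of this branch, by 0.40 ± 0.31, beside changes of 0.28 to 0.41 in the other lines, and its difference from their mean did not pass (adjusted p = 0.874). Of 26 genes of canonical NF-kB and its feedback targets, 4 rose and 6 fell, with IER3 rising by 1.13 and LTB and BCL3 falling by 1.13 and 0.88. The LTB fall was lost in 9 of 16 alternatives (adjusted p up to 0.208). The median was -0.04 in MAVER1 and -0.34 to -0.08 in the other lines, with 0 members above or below the mean of the others.

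The interferon response list held more falls than rises. Of 39 measured, 13 fell and 3 rose in MAVER1 (33.3% and 7.69%, against 10.7% and 11.2% of all genes), with a median of -0.42. GRANTA519, JEKO1 and REC1 had 16, 17 and 7 falls, where 12.4%, 13.5% and 7.63% of all genes fell, and 3, 1 and 2 rises. RTP4, an interferon-induced chaperone of receptors, was not on this list and was added after its value was seen. It had DMSO levels of 7.11, 6.69, 7.04, 6.99 and 6.94 and OTX015 levels of 5.63, 4.90, 5.31, 4.89 and 5.27. The groups did not overlap, and it fell by 1.75 ± 0.23 (adjusted p = 2.51e-11), further than in GRANTA519, where it changed by -0.89 from a mean of 5.38, and than in JEKO1 and REC1, where the changes were -0.29 and -0.34 from means of 4.78 and 4.73. It was detected on 0 of 10 JEKO1 arrays and 1 of 10 REC1 arrays, so little fall could be measured there. OAS3, a synthetase of the antiviral RNase L pathway, fell by 0.84 ± 0.07 and was detected on 5 DMSO arrays of MAVER1 and on no DMSO array of the other lines.

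GBP1, USP18 and XAF1, also induced by interferon, fell by 1.24, 0.87 and 0.86 and lay below the mean of the other lines by 0.83, 0.76 and 0.70. USP18 was detected on no array of the other lines. Against this, IFIH1 and TRIM22, a sensor of viral RNA and a ubiquitin ligase, had changes of -0.29 and -0.85 in MAVER1 that did not pass and lay 0.65 and 0.61 above the mean of the other lines. IRF7, the master regulator of type I interferon genes, rose by 1.83 ± 0.49 and lay 0.55 above, and it also rose in each other line, by 1.01 to 1.57. ISG20 and DDX60 fell by 1.03 and 0.98 with no difference from the other lines that passed. Thus 3 members were above the other lines and 4 below, against 0.975% and 0.546% of all genes. Of these 7 differences that of OAS3 was kept in all 16 alternatives run, but with no detected DMSO array in the other lines a fall could not be measured there. Those of GBP1, IRF7 and TRIM22 were each lost in 8 of 17, XAF1 in 7 of 17, USP18 in 7 of 16 and IFIH1 in 6 of 17.

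MYC targets and ribosome biogenesis had 21 falls and 1 rise among 51 genes (41.2% fell, against 10.7% of all genes), with PPAN and SLC19A1 each falling by 0.98 and RRS1 by 0.90. GAR1, a protein of the H/ACA particles, fell by 0.86 ± 0.21, and it fell in all 3 other lines too, by 0.46 to 0.91. Among 11 genes of MYC and its partners, MXD4 and MXD1, antagonists of MYC, rose by 1.07 and 0.90. Of 53 genes of G1/S and DNA replication 8 fell and 3 rose, MCM2 by -0.60, and of 45 of G2/M and mitosis 6 fell and 0 rose, CENPF by -0.57. These shares of falls, 15.1% and 13.3%, were near the 10.7% of all genes. Of 15 cyclin D, CDK4/6 and CDK inhibitor genes, CDKN2D, CCND3 and CDKN1A rose by 0.87, 0.79 and 0.69, and CCND2 fell by 0.78 ± 0.77. CCND1 lay 0.52 above the mean of the other lines (adjusted p = 0.0254), but this rested on REC1, where it changed by -1.73 and was not well above background on any OTX015 array. Without REC1 the difference was -0.04.

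The shares in the following lists are read against 11.2% of all genes that rose and 10.7% that fell. In the BCL2 family, MCL1 and BNIP3L rose by 0.75 and 0.65, and BCL2L1 (BCL-XL) and BCL2L2 fell by 0.74 and 0.61, among 3 rises and 5 falls of 20 (15% and 25%). BID, the link from death receptors to mitochondria, changed by -0.16 in MAVER1, which did not pass, and by -0.71 to -1.23 in the other lines, a difference of 0.83 from their mean (adjusted p = 0.00173). Of 13 death receptor genes 3 rose and 1 fell (23.1% and 7.69%), CFLAR, an inhibitor of caspase 8, by 0.99. Of 26 p53 targets 9 rose and 2 fell (34.6% and 7.69%), TP53INP1 by 1.14 and GADD45A by 1.02 upwards. Of 35 lysosome and autophagy genes 15 rose and 1 fell (42.9% rose), ULK1, a starter kinase of autophagy, by 1.04 and WIPI1, which binds the forming autophagosome, by 0.81.

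Of 25 immediate early genes 8 rose and 1 fell (32% and 4%, against 11.2% and 10.7% of all genes), JUN by 1.16 and IER2 by 0.71 ± 0.60, with a change of 1.75 at 2 h. Of 28 ATF4 and unfolded protein response genes 3 rose and 2 fell (10.7% and 7.14%), and of 16 MAPK feedback genes 1 rose and 1 fell (6.25% each), PHLDA1 by 0.62 and SPRY1 by -1.26. Of 33 cytokine receptor, STAT and SOCS genes 5 rose and 4 fell (15.2% and 12.1%). None of these 3 lists held clearly more calls than all genes did. The PHLDA1 rise was lost in 10 of 15 alternatives. In that list IL10RA lay 0.76 and IFNGR1 0.51 above the mean of the other lines, with changes of 0.20 and 0.31 in MAVER1 that did not pass. The IFNGR1 difference was lost in 8 of 17 alternatives, among them without GRANTA519 and without REC1 (adjusted p up to 0.605). Of 30 cholesterol and lipid genes 7 rose and 1 fell, TM7SF2 by 0.85 and INSIG1 by 0.76 upwards, and of 32 glycolysis and hypoxia genes 7 rose and 1 fell, NDRG1 by 1.19 upwards.

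Further lists were cytosolic ribosomal proteins, with 4 rises and 2 falls of 45, oxidative phosphorylation, with 0 and 4 of 43, and heat shock proteins, with 0 and 0 of 18 by limma's adjusted p, changes from -0.35 to 0.35 and 5 genes with an unadjusted p under 0.05. Among 12 reference genes, POLR2A, the largest subunit of RNA polymerase II, rose by 1.06 ± 0.20 and GUSB by 0.25, and 0 fell.

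**Figure D4:**
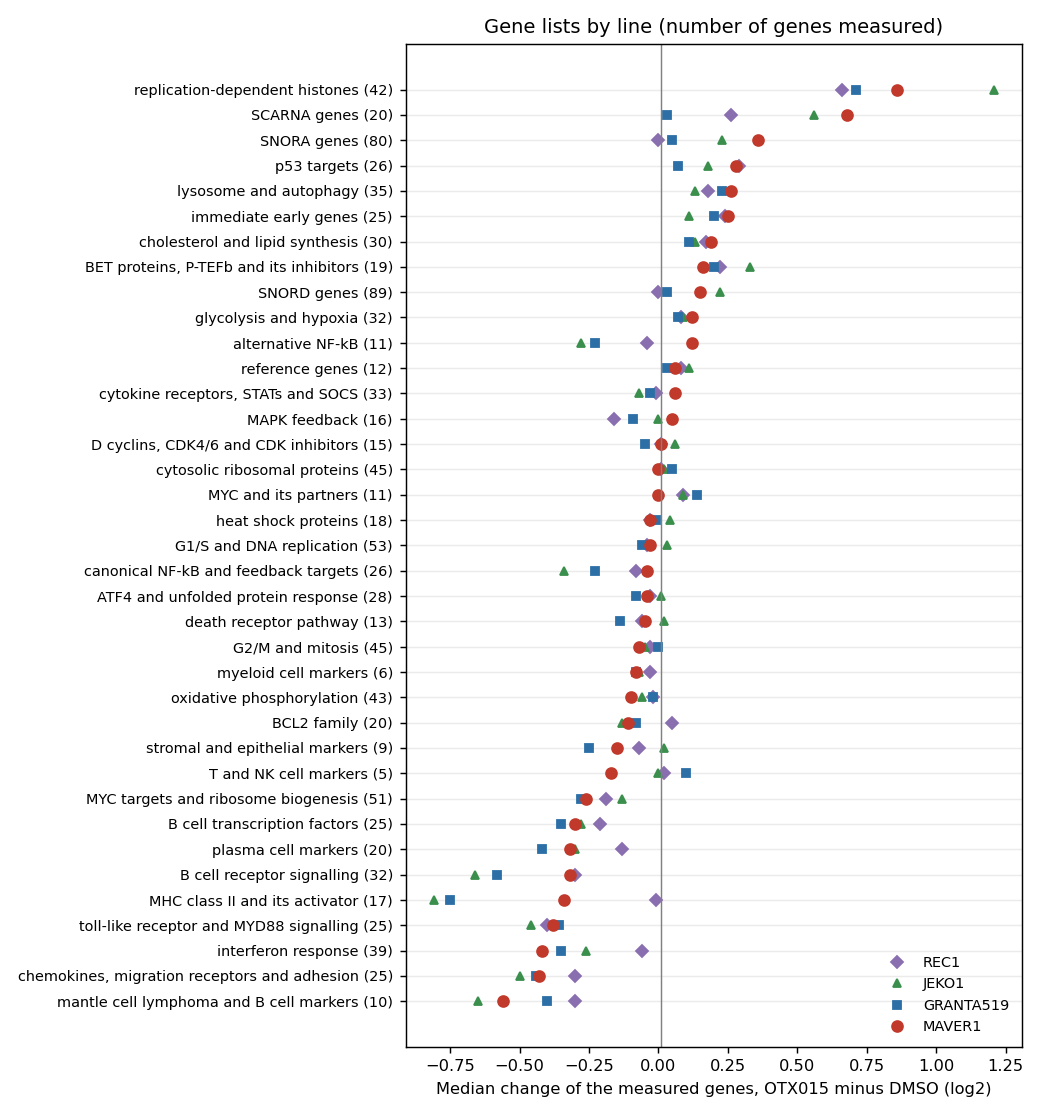
Median change in log2 signal, OTX015 minus DMSO (horizontal axis), of the measured genes of 37 lists and families (vertical axis, number measured in brackets) in the 4 lines, with the MAVER1 median of all genes as a vertical line. Histones have a MAVER1 median of 0.86, SCARNA genes 0.68 and SNORA genes 0.36, and mantle cell lymphoma and B cell markers have the lowest, -0.56.

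Some changes grew with time. In a model of the change on the log2 of the hours, 100 genes had a positive slope in MAVER1 (0.728%) and 128 a negative one (0.932%). The steepest positive slopes included SNORA28, SNORA48, SNORA13 and SNORA46, at 0.80, 0.79, 0.77 and 0.77 per doubling of the hours, and 22 of 80 SNORA and 4 of 20 SCARNA genes had a positive slope. CCL4L1, a chemokine gene, and TMT1B had slopes of 0.80 and 0.77 that began from a high 2 h DMSO array. TMT1B had a level of 6.70 there and of 4.37 to 4.66 on the other DMSO arrays. SNORA46 and SNORA48 were each detected on 1 DMSO and 3 OTX015 arrays of MAVER1.

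The steepest negative slopes were those of SH3TC1, ACSL5, a fatty acid activating enzyme, JCHAIN, the joining chain of IgM and IgA, VPREB3, CUX2 and MLKL, the effector of necroptosis. The 4 probes of ACSL5 had mean changes from -1.96 to -0.01. JCHAIN had DMSO levels of 10.51, 10.30, 10.44, 10.61 and 10.89 and OTX015 levels of 10.35, 9.68, 8.92, 8.15 and 7.28. The change was -0.15 at 2 h and -3.61 at 24 h, with a slope of -0.99 (adjusted p = 0.00164). VPREB3, of the surrogate light chain family, had changes of -0.66 at 2 h and -3.92 at 24 h. CUX2 was detected on all 5 DMSO arrays of MAVER1 and on no array of the other lines, with changes of 0.76 and 0.47 at 2 and 4 h and of -2.16 to -1.80 later.

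The slope in MAVER1 was above that of the other 3 lines for 8 genes (0.0582%) and below for 3 (0.0218%). SNORA62, SNORA6, SNORA57, SNORA13 and SNORA48 were 5 of the 8, beside ST14, TMT1B and PAQR5, and TRIM24, DCUN1D3 and CEP128 were the 3 below. SNORA6 had a slope of 0.74, which was 0.61 above the others (adjusted p = 0.029). Without the 2 h, 8 h, 12 h or 24 h pairs no slope differed from the other lines by limma's adjusted p, and without the 4 h pairs 6 did, where 1156 genes had an unadjusted p under 0.05 with all pairs.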

How the data were processed

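Total RNA of 4 mantle cell lymphoma lines was hybridised to Illumina bead arrays, per the labels. GenomeStudio is named in the submitters' processing notes, and the authors deposited a table of raw bead intensity without control probes or detection p-values, besides processed log2 values, with no normalization named in the sources used. The log2 values served as an alternative. Of 47231 probes 30113 had 1 gene symbol, 8 had several and 17110 none.

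From the deposited intensity, the background of an array was set at the most frequent log2 signal, 89.2 to 113.2 on the linear scale. Background was corrected by normexp, 16 was added, arrays were quantile normalized, which hides any shift shared by all genes, and log2 was taken. Detection required a signal at least 2.33 SD above that background. Probes detected on at least 4 arrays were kept, and the brightest stood for its gene, which left 13740 genes. Between 35.3% and 46.8% of probes were detected, and the number of arrays limits the precision.

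The 20 OTX015 minus DMSO differences were tested with limma 3.58.1 in R 4.3.3. The fit by line gave the effect, the fit by line and time the differences between lines, and a term in log2 hours the trend. Where a gene was not above background on any array of a group, the fold is at least the brighter mean over the dim group's detection floor. Arrays are paired by line and time in the labels. The deviations of paired MAVER1 arrays from their group means correlated at 0.0796 (8 h) to 0.248 (24 h). An exact sign-flip test of 5 pairs cannot go below p = 0.0625. The fits were tested on simulated data.

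The members, gene lists and rules were chosen with earlier results of these data known. Named were the 12 largest rises and falls with 1 sign at all times, the 12 largest differences each way among genes set apart and detected in every line, the 6 largest each way among genes detected in MAVER1 alone and among slopes, and up to 4 called members of each list. The small RNA families, list members that differed from the other lines and set-apart genes near background were added after their values were seen, as were CCDC112, ZNF296, TIPIN and the genes with differing slopes. Promoter sequences are from RefSeq. Background correction, offset, normalization, filters, probe choice, variance model, pairing, time term and each time and line were varied.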

Additional observations from a re-analysis of the deposited data

Results flagged for a closer look

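Of 164 genes examined, 8 had 1 time far from the other 4 in MAVER1, which is about the 5% that chance gives, so the count alone is no sign of a pattern. Most of these outlying times were at 2 h, and whether that is more than chance gives was not tested. At 2 h the change stood apart for H4C14 (1.45), EFR3B (0.19), TNFRSF17 (-1.40), ESPNL (-0.89), TESK2 (0.97) and BLK (-0.26), each nearer 0 than later. IER2, an immediate early gene, was the 2 h exception upwards, at 1.75. SOX11 stood apart at 4 h, with 1.07.

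The change in MAVER1 differed from each of the other 3 lines, by limma, for 33 genes. Of these, 20 were flagged by a search limited to the genes named first for being set apart or detected in MAVER1 alone. Set-apart genes named later, such as SNORA23 and RTP4, were not in that search. The differences of the 20 from the mean of the other lines follow on the log2 scale. Among small RNAs these were 1.42 for SNORA28, 1.34 for SNORA13, 1.04 for SNORA27, 0.99 for SCARNA8, 0.92 for SCARNA16 and 0.66 for SNORA50C. Among genes higher in their change they were 1.40 for KHDRBS3, 1.06 for H2BC12, 0.92 for FAM171A1, 0.74 for TESK2, 0.67 for EEIG2 and 0.63 for ABCC5. Among genes lower in their change they were -1.07 for HBEGF, -0.98 for CCDC85C and -0.69 for ASF1A. For genes detected in MAVER1 alone they were 0.93 for ZCCHC14, -1.07 for TRIM47, -0.95 for PSMB11, -0.78 for MNDA and -0.77 for GGTLC2. The other lines had no measurable level of these genes, so a fall could not be seen there.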

How the results depend on the processing

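The counts of 1545 rises and 1476 falls ranged from 988 to 1680 and from 908 to 1704 when 1 time was left out, with the lowest without the 12 h pairs. With no replicate block, so that arrays were not paired by time, they were 1117 and 1163. From the 5 MAVER1 pairs alone, without the spread of the other lines, they were 1157 and 1168, and 25 SNORA genes rose in place of 37. Median scaling moved the share of rises among calls from 51.1% to 45.2%. The 134 genes above the mean of the other lines became 232 without background correction, 229 with an offset of 50, 234 with the authors' values, 55 with no time term, and 38 to 170 with 1 time left out. The 75 below became 155, 145, 154 and 39 in the same order, 44 with genes detected on all 10 MAVER1 arrays, and 17 to 128. Of the set-apart genes, the 19 above became 29 with an offset of 50, 11 with median scaling, 3 with no time term and 4 to 26 with 1 time left out, and the 14 below became 5 among genes detected on all 10 arrays and 8 to 22. The 100 rising slopes became 197 without background correction, 188 with an offset of 50, 167 with median scaling, 200 with the authors' values and 22 to 102 with 1 time left out. The 128 falling slopes became 202, 217 (offset), 210 (authors' values) and 27 to 156. The 11 slopes that differed from the other lines became 20, 22, 19, 20 and 7 (robust variance), and 0 to 6 with 1 time left out. The 22 SNORA and SCARNA genes above the other lines were 11 with no time term, 12 without GRANTA519, 13 without REC1 and 7 to 29 with 1 time left out. The CCND1 difference was -0.04 without REC1. The causes were not tested, except that fewer times or genes leave less to test. Of the 33 set-apart genes, 12 to 31 were shared across the alternatives, and HBEGF, TRIM47, MNDA, FOXD1, RTP4, OAS3, ACKR4, SAMD13 and GPRC5C stayed in all run. All of these but HBEGF were near background in MAVER1 or in another line, which limits the change that could be measured there. HBEGF was low in JEKO1 and REC1, where a fall of its MAVER1 size would also have ended near background. That these genes stayed is thus no sign of a firmer difference. The 92 named changes of at least 2-fold had a median 62.7% of their size without background correction and 59% with the authors' values, and signals near background limit folds of dim genes.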
